A study of Mus musculus with 24 samples.

Results

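Gene expression in the control ductus arteriosus (DA) was compared, in mouse embryos at E18.5 and so before the DA closes, with that in the control ascending aorta. The members of the comparison were chosen by their titles, which mark 7 libraries as control DA and 6 as control aorta, 13 of the 23 libraries analysed, and 16463 of the 54752 genes in the table were expressed highly enough to be tested. The study deleted Prdm6 in neural crest cells with a Wnt1-driven Cre and sequenced both vessels from deficient and control embryos. Bulk RNA-Seq was used, and each control library holds the RNA of 1 microdissected vessel, while by the labels 2 of the Prdm6-deficient DA libraries, which enter the fit, each carry the numbers of 2 animals. The control embryos were on a C57BL/6 background. Most carried PRDM6wt/f, that is 1 floxed and 1 wild-type allele and no Cre, and these gave control DA replicates 1, 4, 5, 6 and 7 and control aorta replicates 1, 2, 4, 5 and 6. A single Wnt1Cre;PRDM6wt/wt embryo gave control DA replicate 2 and control aorta replicate 3, so that its neural crest expressed Cre but its Prdm6 alleles were wild-type. A PRDM6wt/wt embryo gave control DA replicate 3 and has no aorta library here. By the animal numbers in the labels, 6 embryos gave both vessels.

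The DA joins the pulmonary artery to the aorta and lets blood bypass the lungs before birth. Its smooth muscle cells (SMC), like those of the ascending aorta, come largely from the cardiac neural crest, but the DA is a muscular vessel that is held open by prostaglandin E2 and low oxygen and that constricts within a short time of birth, while the ascending aorta is an elastic vessel. Closure starts with contraction of SMC and is completed by growth of the intima and remodelling of the matrix, so contractile, ion channel, prostaglandin, oxygen sensing and matrix genes are taken in turn.

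Levels are given as CPM, read counts scaled to library size with the TMM method, and differences as log2 fold changes of DA over aorta with ± 1 SE, so that positive values are higher in the DA. Adjusted p-values are those of edgeR unless another test is named. A gene was called when its Benjamini-Hochberg adjusted p in edgeR's quasi-likelihood test was below 0.01 and its log2 fold change lay beyond 0.5 either way. Total counts were 15163974 to 21037037 in control DA (median 18595688) and 19309945 to 22610547 in control aorta (median 20219948), a difference with p = 0.0455 (exact permutation test, 2-sided, adjusted p = 0.0909 over 4 library measures). The number of genes with at least 1 count was 16167 to 18566 in the DA and 17988 to 19104 in the aorta (exact permutation p = 0.0163, adjusted p = 0.0653). By the labels, DA samples yielded 20 to 59 ng of RNA and aorta samples 94 to 210 ng, so the vessel and the amount of RNA cannot be told apart. The DA libraries varied more among themselves, with a median SD of 0.371 on the log2 CPM scale over genes against 0.251 in the aorta. Both sets carried SMC markers at high levels (summed CPM of 7 genes 13280 to 23310 in the DA and 8490 to 12070 in the aorta), and the endothelial sums overlapped (1050 to 1432 and 872 to 1432 CPM). A pair of libraries stood apart. Control DA replicate 1 had 1837 CPM of cardiomyocyte markers against 46.6 to 261 in the other 6 DA libraries, and in control aorta replicate 4 haemoglobin genes took 12.4% of counts against 2.74% to 4.65% in the other aorta libraries. Without both libraries 845 genes were called, an alternative chosen after seeing the data.

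Of the 16463 genes tested, 521 (3.16%) were called higher in the DA and 361 (2.19%) lower. These percentages are the background against which every list below is read. The median log2 fold change was 1.06 among the genes called higher and -0.94 among those called lower. A log2 fold change above 2 was reached by 110 genes and one below -2 by 41. In the 6 embryos with both vessels, 468 of the 521 genes called higher had more CPM in the DA in every embryo (6.75% of all genes tested did), and 326 of the 361 called lower had less in every embryo (7.09% of all genes did). With the embryo as a block, 674 genes were called (4.54% of 14853 tested). Of the 882 called genes, 637 had libraries that did not overlap between the vessels, as had 5.36% of all genes tested. Control aorta replicate 4 was the aorta library nearest to the DA for 242 of the 521 genes called higher, while each other aorta library was so for 39 to 96 genes. Of the 361 genes called lower, it was the lowest aorta library for 86, and control DA replicate 6 was the highest DA library for 119. In the plot of all genes by expression, differences spread on both sides at every level.

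**Figure D1:**
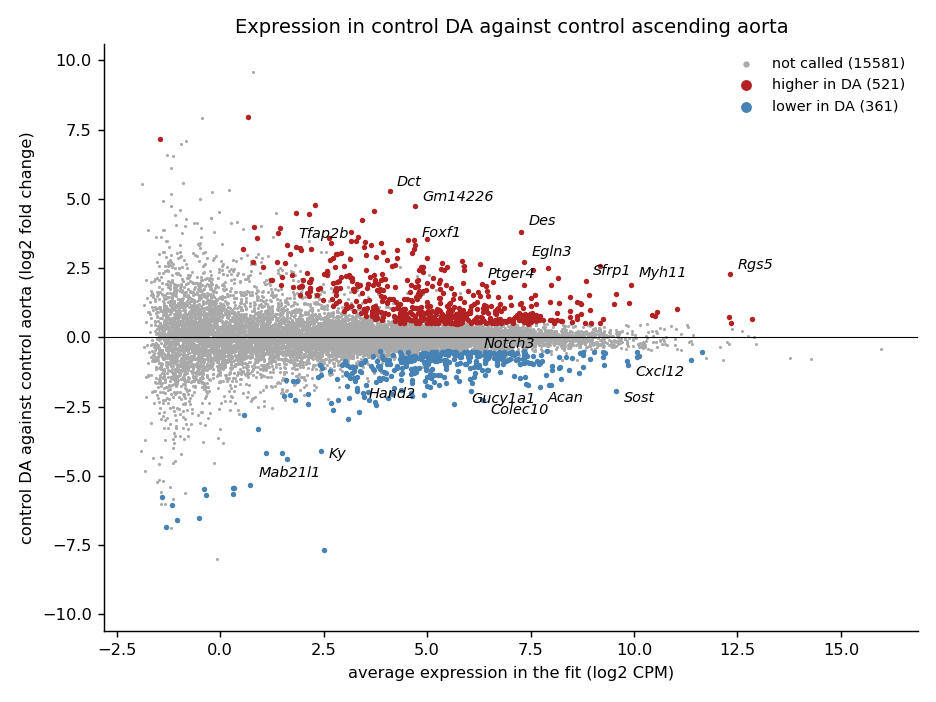
Log2 fold change of control DA (7 libraries) over control aorta (6 libraries) against the average log2 CPM in the fit, 1 point for each of 16463 genes. Red points are the 521 genes called higher in the DA, blue points the 361 called lower and grey points the genes not called, with some gene names written beside their points.

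The contractile apparatus of SMC was the list with the most members higher in the DA. Of 40 tested genes of the contractile filament and its regulators, 19 were called higher and 1 lower, with a median log2 fold change of 0.50 against -0.005 over all genes tested. Desmin (Des, chromosome 1, 75360329 to 75368579, plus strand), the intermediate filament protein of muscle, had the largest difference, with 265 to 646 CPM (median 399) in the DA and 21.3 to 54.9 CPM (median 30.5) in the aorta, and the lowest DA library was well above the highest aorta library, control aorta replicate 4. It differed by a log2 fold change of 3.79 ± 0.29 (adjusted p = 1.33e-09). Actg2, the smooth muscle γ-actin, measured 964 to 1959 CPM in the DA (median 1284) and 152 to 311 CPM in the aorta (median 228), again with no overlap. The difference was 2.58 ± 0.18 (adjusted p = 6.88e-10) on the log2 scale. The smooth muscle myosin heavy chain Myh11 had 1415 to 2870 CPM in the DA (median 1902) and 325 to 773 CPM in the aorta (median 504), with a log2 fold change of 1.90. The kinase that activates this myosin, Mylk, had a log2 fold change of 1.48, and Ppp1r14a, which inhibits the opposing myosin phosphatase, one of 1.16 (174 to 284 CPM (median 186) in the DA and 70.9 to 113 CPM (median 96.3) in the aorta). Calponin (Cnn1, 1.57), tropomyosin (Tpm1, 0.90), smoothelin (Smtn, 0.84), the regulatory light chain Myl9 (0.78) and Tagln (0.74) were called higher with smaller differences, and each had DA libraries that all lay above the aorta libraries. Acta2, the smooth muscle α-actin and a standard marker of SMC, was near the limit of the call. It had 4915 to 8650 CPM in the DA (median 6604) and 3634 to 5735 CPM in the aorta (median 4614), the vessels overlapped, and its log2 fold change was 0.53 ± 0.11 (adjusted p = 0.00112). It was higher in the DA in 5 of 6 embryos, its adjusted p was 0.0876 with the embryo as a block, and its log2 fold change fell below 0.5 without control DA replicate 3, control DA replicate 5 or control aorta replicate 6. Without control DA replicate 6, 2 members were called lower. Lmod1, which nucleates actin filaments in SMC, was not called (log2 fold change 0.33, adjusted p = 0.064). The member called lower was Itga8, an integrin subunit of SMC, with 337 to 601 CPM in the DA (median 421) and 608 to 923 CPM in the aorta (median 775), at a log2 fold change of -0.79 ± 0.13 (adjusted p = 9.17e-05). In bulk samples, fewer cells of a type and less RNA per cell cannot be told apart.

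**Figure D2:**
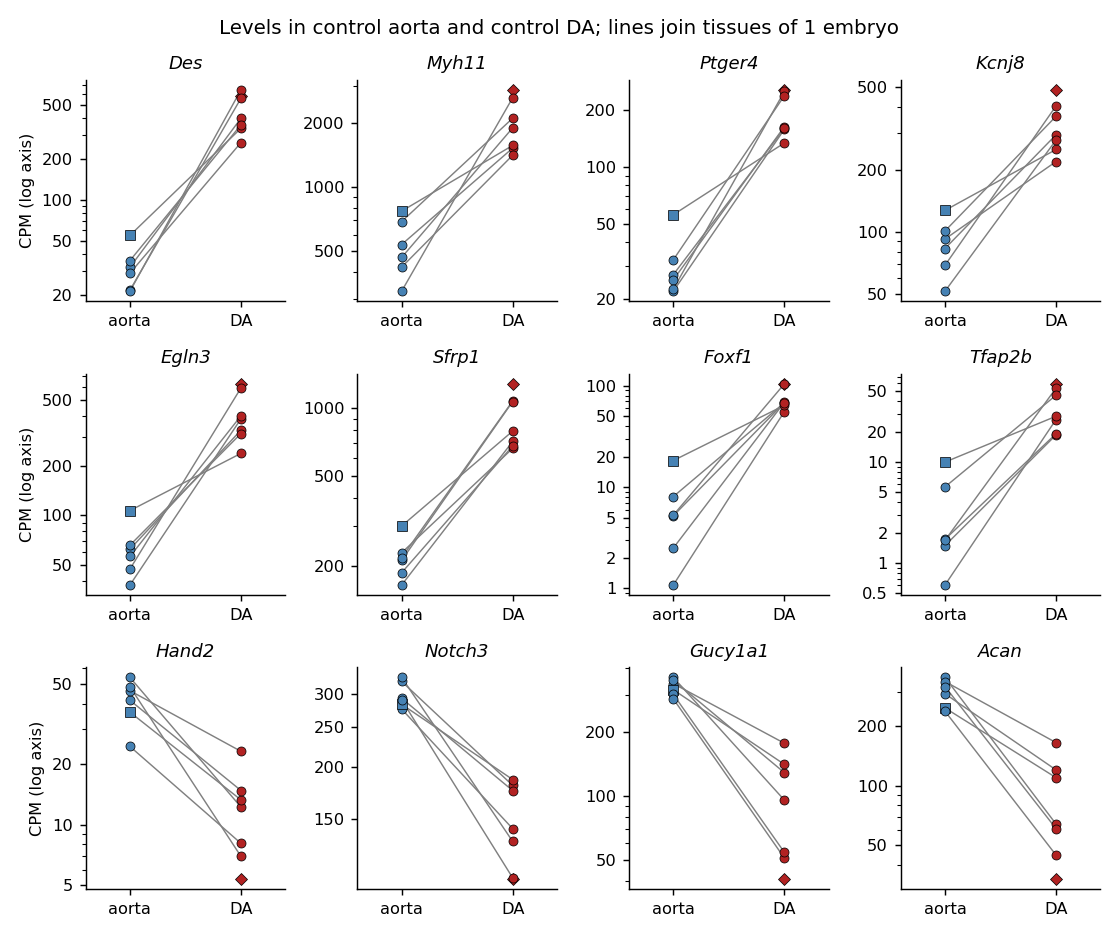
Levels of 12 genes in CPM (log axis) in control aorta (blue) and control DA (red), 1 point for each library, with grey lines joining the vessels of 1 embryo. Red diamonds are control DA replicate 3, whose embryo has no aorta library, and blue squares are control aorta replicate 4. In the upper 8 panels each line climbs from aorta to DA, and in the lower 4 (Hand2, Notch3, Gucy1a1 and Acan) each line descends.

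The transcription factors that drive these contractile genes differed less. Of 15 tested genes for SRF and its cofactors, 2 were called higher and 0 lower, with a median of 0.07. Srf itself, which binds CArG boxes in the promoters of SMC genes, had 56.4 to 104 CPM in the DA (median 94.9) and 58.0 to 82.3 CPM in the aorta (median 68.7), with a log2 fold change of 0.39 ± 0.12 (adjusted p = 0.027) that did not meet the limits. Control DA replicate 1 was the lowest DA library for Srf, at 56.4 CPM, while the other 6 held 84.0 to 104 CPM. Myocardin (Myocd), the SMC-restricted coactivator of SRF, had 18.5 to 36.1 CPM in the DA (median 29.8) and 25.4 to 35.6 CPM in the aorta (median 27.4), with a log2 fold change of 0.00 ± 0.17 (adjusted p = 0.995). The called members were Tead1, a partner of the Hippo pathway coactivators (111 against 68.1 CPM in medians, log2 fold change 0.87, adjusted p = 9.28e-05), and Fhl2, a LIM domain cofactor (16.4 to 37.3 CPM in the DA with a median of 25.4, 9.88 to 19.6 CPM in the aorta with a median of 15.7, log2 fold change 0.74, adjusted p = 0.0019). The vessels overlapped for Fhl2, which was higher in the DA in 6 of 6 embryos but had an adjusted p of 0.0148 with the embryo as a block.

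The windows from 250 bases before to 50 bases after gene starts were taken from RefSeq on GRCm38.p6. They were searched on both strands for the CArG box, the motif that SRF binds. A box was counted only as CC, then 6 bases that were each A or T, then GG. Of 11621 tested genes with a window, 192 (1.65%) held a box (488 of all 27025 genes with a window, 1.81%), as did 12 of 368 genes called higher (3.26%) and 5 of 259 called lower (1.93%). In the contractile list 6 of 34 genes with a window held one (17.6%), but among its members called higher it was 1 of 15 (6.67%). That gene was Myl9, and Fhl2 of the SRF list also held a box. Their 250 bases before the start are shown, 5′ to 3′ in the direction of transcription with the box in capitals, because these are the members of the contractile and SRF lists that were both called higher and matched. For Myl9 the window before the start is chr2:156775214-156775463, plus strand, with the box starting 161 bases before the start. For Fhl2 it is chr1:43163962-43164211, minus strand, with the box starting 31 bases before the start, and the window at a second start of Fhl2 also held a box.
Myl9: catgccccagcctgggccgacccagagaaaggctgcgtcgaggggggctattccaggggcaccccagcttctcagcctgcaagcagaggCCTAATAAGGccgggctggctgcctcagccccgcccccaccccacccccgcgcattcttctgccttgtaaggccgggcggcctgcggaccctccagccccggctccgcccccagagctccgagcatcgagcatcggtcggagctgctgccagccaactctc
Fhl2: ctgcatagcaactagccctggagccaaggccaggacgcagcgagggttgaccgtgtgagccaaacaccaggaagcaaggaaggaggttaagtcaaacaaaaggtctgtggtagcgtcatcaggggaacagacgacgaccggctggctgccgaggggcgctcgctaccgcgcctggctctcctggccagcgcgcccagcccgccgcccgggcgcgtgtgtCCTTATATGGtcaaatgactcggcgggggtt
A match describes these letters only, and a gene without one may hold a box outside the window or one that departs from the exact pattern.

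Genes that regulate the phosphorylation of myosin showed no shared direction. Of 20 tested members of the list of myosin phosphatase and its regulators, 2 were called higher and 1 lower, with a median of -0.10. Cdc42ep3, a binding partner of Cdc42 and septins, had 167 to 270.0 CPM in the DA (median 178) and 92.9 to 121 CPM in the aorta (median 108), with a log2 fold change of 0.89 ± 0.10 (adjusted p = 5.42e-07). Rnd2, a small GTP-binding protein without GTPase activity, was lower in the DA, with 9.78 to 26.1 CPM in the DA (median 16.02) and 33.4 to 46.2 CPM in the aorta (median 36.5), at a log2 fold change of -1.19 ± 0.15 (adjusted p = 2.57e-06). The unconventional myosin Myo18b was low in both vessels (0.809 to 11.2 CPM in the DA with a median of 2.46, 0.0959 to 0.675 CPM in the aorta with a median of 0.300). Its log2 fold change was 3.58 ± 0.76 (adjusted p = 0.00157), and the adjusted p was 0.0592 with the embryo as a block and 0.0112 in limma-voom. The DA library highest for Myo18b was control DA replicate 1, which also had the largest sums of cardiomyocyte and skeletal muscle markers.

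The prostaglandin list stood out by a single gene. Of 19 tested members, only Ptger4 was called, and the list's median was 0.05. Without any 1 of control DA replicates 1, 2, 4 and 5 and control aorta replicate 5, 2 members were called. Ptger4 (chromosome 15, 5206661 to 5244187, minus strand) encodes EP4, the receptor that raises cAMP in response to prostaglandin E2. It had 134 to 256 CPM (median 164) in the DA and 21.97 to 55.9 CPM (median 26.1) in the aorta, where control aorta replicate 4 was the highest at 55.9 CPM and the other 5 held 22.0 to 32.2 CPM. The vessels did not overlap, all 6 embryos were higher in the DA, and the log2 fold change was 2.66 ± 0.22 (adjusted p = 3.62e-09). The thromboxane receptor Tbxa2r, which mediates constriction, had 35.2 to 48.9 CPM in the DA (median 41.9) and 21.2 to 40.9 CPM in the aorta (median 31.9) and was not called (log2 fold change 0.44, adjusted p = 0.0421). The cyclooxygenase gene Ptgs1 had 8.58 to 19.8 CPM in the DA (median 15.2) and 7.37 to 11.7 CPM in the aorta (median 10.5), with a log2 fold change of 0.55 (adjusted p = 0.107). The receptor gene Ptger3 had 0.106 to 5.41 CPM in the DA (median 4.58) and 0.808 to 2.97 CPM in the aorta (median 1.87), with a log2 fold change of 1.01 (adjusted p = 0.144). Ptger3 met the limits without control DA replicate 5 (log2 fold change 1.23, adjusted p = 0.00515).

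Calcium handling genes differed modestly. Of 45 tested channels, stores and pumps, 4 were called higher and 0 lower, with a median of 0.17. They were the cation channel Trpv2 (10.6 to 23.7 CPM in the DA with a median of 17.6, 3.23 to 6.29 CPM in the aorta with a median of 5.26, log2 fold change 1.75, adjusted p = 4.04e-07), the sarcoplasmic pump Atp2a2 (347 against 214 CPM in medians, log2 fold change 0.64, adjusted p = 0.00018), the calcium-activated kinase Camk2d (81.6 against 57.4 CPM, log2 fold change 0.61, adjusted p = 6.23e-05) and the IP3 receptor Itpr1 (49.3 against 30.6 CPM, log2 fold change 0.59, adjusted p = 0.000218). Cacna1c, the pore of the L-type channel through which depolarisation admits calcium, had 25.7 to 39.1 CPM in the DA (median 31.4) and 25.6 to 42.8 CPM in the aorta (median 38.5) and was not called (log2 fold change -0.15, adjusted p = 0.708).

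Potassium and chloride channel genes differed more, with 6 of 41 called higher and 1 lower at a median of -0.004. These counts depend on the membership of the list. It leaves out the potassium channel subunit Kcnab1 (log2 fold change -2.40) and the channel-interacting protein Kcnip4 (-2.68), both called lower and described further below. Kcnj8, the pore of the vascular ATP-sensitive channel, had 219 to 486 CPM in the DA (median 294) and 51.8 to 127 CPM in the aorta (median 87.8), no overlap, and a log2 fold change of 1.91 ± 0.18 (adjusted p = 1.85e-08). Its regulatory subunit Abcc9 had 131 to 244 CPM in the DA (median 159.6) and 169 to 208 CPM in the aorta (median 175), with a log2 fold change of -0.03 ± 0.14 (adjusted p = 0.943). The background potassium channel Kcnk3 had 31.6 to 74.7 CPM in the DA (median 54.9) and 7.75 to 15.3 CPM in the aorta (median 13.7), with a log2 fold change of 2.09. Its relative Kcnk1 had 22.04 to 48.1 CPM in the DA (median 32.8) and 7.67 to 12.8 CPM in the aorta (median 10.6), with a log2 fold change of 1.70, and neither overlapped between the vessels. The calcium-activated channel showed both of its subunits above the aorta range. The β subunit Kcnmb1 had 47.1 to 93.8 CPM in the DA (median 63.8) and 21.5 to 39.1 CPM in the aorta (median 26.0) and was called (log2 fold change 1.24, adjusted p = 1.54e-06). The pore subunit Kcnma1 had 4.75 to 10.8 CPM in the DA (median 5.95) and 1.54 to 2.69 CPM in the aorta (median 2.32), but its adjusted p missed the limit (log2 fold change 1.65, adjusted p = 0.0147). The member called lower was Kcns3, which modifies delayed rectifiers, with 1.404 to 7.08 CPM in the DA (median 3.13) and 6.92 to 9.50 CPM in the aorta (median 8.71), at a log2 fold change of -1.34 ± 0.26 (adjusted p = 0.000556), and an adjusted p of 0.0224 with the embryo as a block. Clca3a1, of the calcium-activated chloride channel regulators, was also higher (log2 fold change 1.402, adjusted p = 1.52e-05).

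Of 30 tested genes of cyclic nucleotide signalling, which relaxes SMC, 5 were called higher and 4 lower, with a median of -0.03, and 21 were not called. The 4 called lower make cyclic nucleotides. Both subunits of soluble guanylate cyclase, the receptor of nitric oxide, were among them. Gucy1a1 (chromosome 3, 82092427 to 82145789, minus strand) had 40.8 to 177 CPM in the DA (median 95.7) and 287 to 362 CPM in the aorta (median 328), with a log2 fold change of -1.73 ± 0.24 (adjusted p = 7.81e-06). Gucy1b1 had 66.9 to 139 CPM in the DA (median 88.8) and 152 to 188 CPM in the aorta (median 174), with a log2 fold change of -0.79 ± 0.14 (adjusted p = 0.000238). The natriuretic peptide receptor Npr1, also a guanylate cyclase, had 49.2 to 71.4 CPM in the DA (median 62.2) and 106 to 142 CPM in the aorta (median 114), with a log2 fold change of -0.97 ± 0.09 (adjusted p = 3.07e-08). The adenylate cyclase Adcy5 had 198 to 328 CPM in the DA (median 259.7) and 410.1 to 536 CPM in the aorta (median 422), with a log2 fold change of -0.76 ± 0.10 (adjusted p = 2.77e-06). The vessels did not overlap in any of the 4 genes. Of the 5 called higher, 4 encode phosphodiesterases, which break cyclic nucleotides down: Pde10a (14.7 against 3.08 CPM in medians, log2 fold change 2.19), Pde4d (19.5 against 6.26 CPM, 1.90), Pde4b (52.0 against 23.4 CPM, 1.41) and Pde3b (67.6 against 40.9 CPM, 0.82). Pde3b overlapped between the vessels, and its adjusted p was 0.0127 with the embryo as a block. The fifth was Npr3, the receptor that clears natriuretic peptides, with 85.7 to 191 CPM in the DA (median 135) and 31.4 to 67.0 CPM in the aorta (median 42.1), at a log2 fold change of 1.66 ± 0.18 (adjusted p = 2.71e-07). Grouping these 9 genes by role was done after their values were seen, and synthesis was not tested against breakdown.

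Of 41 vasoactive ligands and receptors, 3 were called higher and 3 lower, with a median of 0.04, and 5 were called lower without any 1 of control DA replicates 1, 2 and 6. Vipr1, a receptor for vasoactive intestinal peptide, had 34.1 to 68.4 CPM in the DA (median 47.2) and 11.9 to 16.9 CPM in the aorta (median 13.8), with a log2 fold change of 1.81 ± 0.13 (adjusted p = 7.23e-10). Endothelin-1 (Edn1), a potent constrictor, had 42.8 to 91.6 CPM in the DA (median 68.0) and 25.4 to 51.5 CPM in the aorta (median 34.4), with a log2 fold change of 1.0 (adjusted p = 8.3e-05). Its processing enzyme Ece1 had 199 to 348 CPM in the DA (median 249.6) and 123 to 184 CPM in the aorta (median 150.0), with a log2 fold change of 0.74 (adjusted p = 9.12e-05). The vessels overlapped for Edn1 and not for Ece1. The endothelin receptor of SMC, Ednra, had 24.7 to 49.2 CPM in the DA (median 35.6) and 41.6 to 57.2 CPM in the aorta (median 48.6) and was just outside the limits (log2 fold change -0.49, adjusted p = 0.0102), which it met without control DA replicate 1 (-0.60), control DA replicate 2 (-0.54) or control aorta replicate 5 (-0.53). The neuropeptide Y receptor Npy1r was lower in the DA, with 1.17 to 12.3 CPM in the DA (median 5.92) and 19.6 to 34.6 CPM in the aorta (median 27.4), at a log2 fold change of -2.04 ± 0.30 (adjusted p = 2.15e-05). Ramp1, a component of the receptor for the dilator CGRP, had 12.6 to 62.6 CPM in the DA (median 29.7) and 70.95 to 117 CPM in the aorta (median 84.5), with a log2 fold change of -1.43 ± 0.25 (adjusted p = 0.000167). The adenosine receptor Adora2a was called lower (log2 fold change -1.14, adjusted p = 0.00551), but its adjusted p was 0.0298 with the embryo as a block and up to 0.0244 with any 1 of 6 libraries left out, that value without control aorta replicate 3. The other 5 were control DA replicates 3, 5 and 7 and control aorta replicates 2 and 5.

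In the oxygen sensing list 2 of 33 members were called higher and 4 lower, or 2 lower without control aorta replicate 1, with a median of -0.09. Egln3 (chromosome 12, 54178981 to 54203860, minus strand), a prolyl hydroxylase that marks HIF for degradation when oxygen is present, had 238 to 632 CPM (median 386) in the DA and 37.6 to 107 CPM (median 59.1) in the aorta, where the highest library, control aorta replicate 4, stayed far below the lowest DA library. The difference was 2.73 ± 0.23 (adjusted p = 5.25e-09) on the log2 scale. Cyp1b1, a cytochrome P450, had 289 to 589 CPM in the DA (median 332) and 68.7 to 166 CPM in the aorta (median 110.2), with a log2 fold change of 1.89 ± 0.20 (adjusted p = 1.03e-07). The 4 genes called lower were Ndrg1, Car9, Ndufa4l2 and Hif3a. Ndrg1 had 49.8 to 101 CPM in the DA (median 66.2) and 108 to 153 CPM in the aorta (median 116), with a log2 fold change of -0.78 ± 0.12 (adjusted p = 3.47e-05). Carbonic anhydrase 9 (Car9) was low in both vessels (1.95 against 5.50 CPM in medians, log2 fold change -1.56, adjusted p = 0.00405). Ndufa4l2, of the respiratory chain, had 19.7 against 43.1 CPM in medians, with a log2 fold change of -1.03 (adjusted p = 0.00478). Hif3a, a HIF subunit, had 46.3 against 78.5 CPM in medians, with a log2 fold change of -0.58 (adjusted p = 0.00152). The vessels overlapped for Car9, Ndufa4l2 and Hif3a. The adjusted p of Car9 was 0.0172 with the embryo as a block and 0.0215 without control aorta replicate 1. That of Ndufa4l2 missed the limit without any 1 of 6 libraries, control DA replicates 3 and 7 and control aorta replicates 1, 2, 3 and 6, and was at most 0.0219.

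Transcription factors that pattern the body axis and the arch arteries were among the largest called differences. Of 46 tested homeobox and forkhead genes, 11 were called higher and 3 lower, or 1 lower with the embryo as a block, with a median of 0.29. Foxf1 (chromosome 8, 121084386 to 121088144, plus strand), a forkhead factor of gut and lung mesenchyme, had 55.5 to 105 CPM (median 68.3) in the DA and 1.08 to 18.3 CPM (median 5.24) in the aorta. Control aorta replicate 4 was the highest aorta library for Foxf1 at 18.3 CPM, and the log2 fold change was 3.50 ± 0.50 (adjusted p = 1.34e-05) with it and 4.10 without it. Reads of Foxf1 and of Foxl1 may overlap a read-through gene, so their counts are uncertain. Six2, a homeobox factor of mesenchyme, had 16.3 to 40.3 CPM in the DA (median 24.7) and 0.411 to 5.88 CPM in the aorta (median 2.94), with a log2 fold change of 3.25 ± 0.40 (adjusted p = 1.63e-06). The members called lower were all forkhead genes. Foxc1, which is needed for aortic arch development, had 48.3 to 74.6 CPM in the DA (median 54.7) and 80.6 to 121 CPM in the aorta (median 95.5), with a log2 fold change of -0.72 ± 0.09 (adjusted p = 2.82e-06). Foxl1 had 0.612 to 4.74 CPM in the DA (median 2.36) and 5.05 to 9.26 CPM in the aorta (median 6.30), with a log2 fold change of -1.42 (adjusted p = 0.00232). Foxs1, a gene of pericytes, had 17.0 against 27.8 CPM in medians, with a log2 fold change of -1.10 (adjusted p = 0.00603). Foxl1 and Foxs1 had adjusted p of 0.0151 and 0.037 with the embryo as a block, and that of Foxs1 missed the limit without any 1 of control DA replicates 3 and 7 and control aorta replicates 2, 3 and 5, at most 0.0252 without the last of these.

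The Hox genes, which give cells their position along the head to tail axis, were ordered by paralog number. Hoxa2 and Hoxa3 were not called, with log2 fold changes of 0.34 and 0.02. Hoxa3 had 32.9 to 48.2 CPM in the DA (median 39.9) and 36.6 to 42.6 CPM in the aorta (median 41.1). Hoxa4 had 15.2 to 39.2 CPM in the DA (median 25.2) and 6.31 to 11.4 CPM in the aorta (median 6.85), with a log2 fold change of 1.86 ± 0.23 (adjusted p = 1.73e-06). Hoxa5 had 43.3 to 99.6 CPM in the DA (median 52.4) and 5.91 to 20.0 CPM in the aorta (median 8.89), with a log2 fold change of 2.54 ± 0.26 (adjusted p = 7.55e-08). For both genes each DA library lay above each aorta library. In the Hoxb cluster 4 of 5 tested genes were called: Hoxb2 at a log2 fold change of 0.79, Hoxb3 at 1.11 with overlap between the vessels, Hoxb4 at 1.02, and Hoxb5. Hoxb5 had 7.58 to 19.3 CPM in the DA (median 13.9) and 0.202 to 3.64 CPM in the aorta (median 1.52), with a log2 fold change of 2.87 ± 0.65 (adjusted p = 0.00312). Hoxb5 missed the limit without control aorta replicate 3 (adjusted p = 0.0109) and in limma-voom (adjusted p = 0.0157). It also missed it without the Wnt1Cre control embryo, which gave that aorta library (adjusted p = 0.0152). Hoxb6 had 3.73 to 8.53 CPM in the DA (median 5.48) and 0 to 3.55 CPM in the aorta (median 0.457), with a log2 fold change of 2.33 (adjusted p = 0.123). Hoxd3 had 7.13 to 18.1 CPM in the DA (median 13.9) and 2.79 to 6.47 CPM in the aorta (median 4.83), with a log2 fold change of 1.54 (adjusted p = 0.0355), and met the limit with the embryo as a block (adjusted p = 0.003). In all, 2 of 7 tested Hoxa genes, 4 of 5 Hoxb genes and 0 of 4 Hoxd genes were called, and of 9 Hoxc genes 0 were expressed highly enough to be tested. Hoxb5 and Hoxb6 overlap the antisense gene Hoxb5os, which had 4.195 to 18.9 CPM in the DA (median 8.72) and 0 to 1.26 CPM in the aorta (median 0.1000), with a log2 fold change of 4.48 ± 0.81 (adjusted p = 0.000404), or 5.26 without control aorta replicate 5. Whether strand was used in counting is not given, so the reads of these genes and Hoxb5os cannot be told apart.

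**Figure D3:**
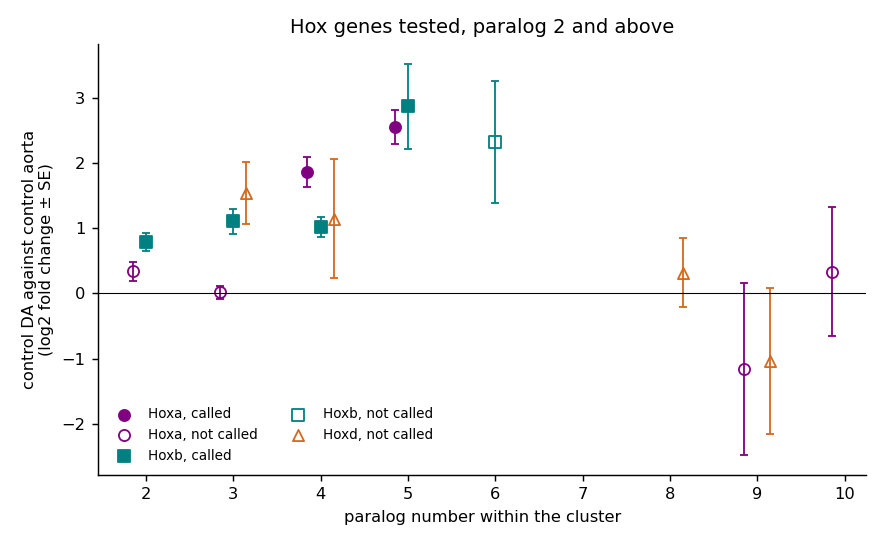
Log2 fold change of control DA over control aorta for 15 tested Hox genes of paralog number 2 and above, with bars of ± 1 SE. Filled symbols were called and open symbols were not, and Hoxa2 and Hoxa3 sit at 0.34 and 0.02 while Hoxa4, Hoxa5 and Hoxb2 to Hoxb5 sit between 0.79 and 2.87.

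Among 57 tested genes of the AP-2, bHLH, T-box, GATA, SOX and zinc-finger families, 8 were called higher and 7 lower, with a median of 0.004. Tfap2b (chromosome 1, 19208914 to 19238576, plus strand), the AP-2 factor whose mutation in people causes Char syndrome with a patent DA, had 18.6 to 59.7 CPM (median 28.4) in the DA and 0.606 to 9.98 CPM (median 1.70) in the aorta. Control aorta replicates 4 and 5 held 9.98 and 5.66 CPM of Tfap2b, and the other 4 aorta libraries at most 1.72 CPM. The log2 fold change was 3.34 ± 0.72 (adjusted p = 0.00193), and 3.996 without control aorta replicate 4. Sox9, a factor of cartilage and of the neural crest, had 14.2 to 47.6 CPM in the DA (median 29.8) and 2.08 to 6.16 CPM in the aorta (median 3.003), with a log2 fold change of 2.98 ± 0.30 (adjusted p = 7.25e-08). Scx, a factor of tendon progenitors, had 51.0 to 91.0 CPM in the DA (median 74.5) and 10.98 to 24.4 CPM in the aorta (median 18.9), with a log2 fold change of 1.95 ± 0.18 (adjusted p = 1.71e-08). Hand2 (chromosome 8, 57320983 to 57324633, plus strand), a bHLH factor of the neural crest and heart, was the largest called decrease of the list. It had 5.39 to 23.2 CPM (median 12.3) in the DA and 24.5 to 54.1 CPM (median 44.03) in the aorta, where the lowest library, control aorta replicate 5, was just above the highest DA library, control DA replicate 2, at 24.5 and 23.2 CPM. Its log2 fold change was -1.803 ± 0.25 (adjusted p = 8.42e-06). The overlapping Hand2os1, whose reads cannot be separated from those of Hand2 without strand, had 0.193 to 3.39 CPM in the DA (median 1.20) and 9.48 to 15 CPM in the aorta (median 12.1), with a log2 fold change of -2.95 ± 0.44 (adjusted p = 2.05e-05). The early B-cell factor Ebf1 (log2 fold change -1.08, adjusted p = 0.00109) and the orphan nuclear receptor Nr2f1 (log2 fold change -1.25, adjusted p = 0.00142) were lower as well.

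The Notch pathway, by which neighbouring cells signal through membrane ligands and receptors, had 5 of 21 members called lower and 1 higher, with a median of -0.25. The ligand Jag1 had 82.3 to 147 CPM in the DA (median 113) and 199.7 to 269 CPM in the aorta (median 206), with a log2 fold change of -0.96 ± 0.11 (adjusted p = 4.55e-07). The receptor Notch3, which SMC use, had 107 to 186 CPM in the DA (median 142) and 276 to 329 CPM in the aorta (median 291), with a log2 fold change of -1.02 ± 0.12 (adjusted p = 4.46e-07). Genes that Notch induces were lower too: Heyl had 69.6 to 172 CPM in the DA (median 119) and 215 to 342 CPM in the aorta (median 258), with a log2 fold change of -1.17 (adjusted p = 1.09e-05). Hey2 had 32.5 to 70.6 CPM in the DA (median 49.0) and 81.3 to 94.8 CPM in the aorta (median 87.8), with a log2 fold change of -0.86 (adjusted p = 1.22e-05). Nrarp, a feedback inhibitor, had 29.0 to 61.8 CPM in the DA (median 41.3) and 76.0 to 95.4 CPM in the aorta (median 81.9), with a log2 fold change of -0.96 (adjusted p = 1.94e-05). None of these 5 genes overlapped between the vessels, and each was lower in the DA in 6 of 6 embryos. Lfng, which modifies Notch receptors with sugars, was higher in the DA (22.4 to 42.7 CPM in the DA with a median of 27.8, 14.7 to 20.4 CPM in the aorta with a median of 19.1, log2 fold change 0.74, adjusted p = 0.00139), with an adjusted p of 0.0113 with the embryo as a block.

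In the TGF-β and BMP list 10 of 43 members were called higher and 2 lower, with a median of 0.19. A single member was called lower with the embryo as a block and without any 1 of control DA replicate 3 and control aorta replicates 2, 3 and 5. The largest called differences were in secreted BMP antagonists. Grem1 had 18.8 to 45.6 CPM in the DA (median 23.7) and 0.606 to 6.84 CPM in the aorta (median 1.38), with a log2 fold change of 3.64 ± 0.54 (adjusted p = 2.05e-05), or 4.34 without control aorta replicate 4. Noggin (Nog) had 4.74 to 11.6 CPM in the DA (median 7.42) and 0.240 to 1.30 CPM in the aorta (median 0.933), with a log2 fold change of 3.15 ± 0.44 (adjusted p = 1.06e-05). Chrdl1 had 15.5 to 33.5 CPM in the DA (median 22.1) and 5.95 to 9.69 CPM in the aorta (median 6.30), with a log2 fold change of 1.68 ± 0.21 (adjusted p = 1.24e-06). Smad9, a transducer of BMP signals, was higher (21.5 against 8.48 CPM in medians, log2 fold change 1.28, adjusted p = 0.000768). The latent TGF-β binding proteins went opposite ways: Ltbp1 had 466 to 775 CPM in the DA (median 522) and 228 to 313 CPM in the aorta (median 245), with a log2 fold change of 1.23 (adjusted p = 7.74e-08). Ltbp4 had 744 to 1033 CPM in the DA (median 883) and 1136 to 1425 CPM in the aorta (median 1299), with a log2 fold change of -0.54 (adjusted p = 0.000203).

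Of 39 Wnt pathway genes 8 were called higher and 5 lower, with a median of 0.18. Sfrp1, a secreted Wnt inhibitor, had 664 to 1289 CPM in the DA (median 792) and 164 to 299.7 CPM in the aorta (median 214), with a log2 fold change of 2.05 ± 0.15 (adjusted p = 6.88e-10). Other secreted inhibitors were lower. Frzb had 23.6 to 49.0 CPM in the DA (median 27.1) and 68.6 to 92.1 CPM in the aorta (median 79.8), with a log2 fold change of -1.25 (adjusted p = 1.6e-05). Dkk3 had 339.6 to 497 CPM in the DA (median 444) and 625 to 747 CPM in the aorta (median 718), with a log2 fold change of -0.69 (adjusted p = 1.4e-06). The ligand Wnt16 had 0.0556 to 6.96 CPM in the DA (median 1.54) and 10.2 to 25.5 CPM in the aorta (median 14.6), with a log2 fold change of -2.44 ± 0.46 (adjusted p = 0.000426). The receptors Ror2 (48.3 against 15.6 CPM in medians, 1.503) and Fzd1 (327 against 458 CPM, -0.56) differed in opposite directions, and the feedback inhibitor Nkd1 (139.9 against 69.1 CPM, 1.14) and the enhancer Rspo3 (15.3 against 8.51 CPM, 1.11) were called higher, though Rspo3 had an adjusted p of 0.0706 in limma-voom. In the retinoic acid list 3 of 17 were called higher and 0 lower, with a median of 0.77, and 1 was called lower without control DA replicate 2 or control aorta replicate 1 and 2 without control DA replicate 4. Cyp26b1, which degrades retinoic acid, had 4.81 to 25.5 CPM in the DA (median 17.1) and 0.384 to 4.34 CPM in the aorta (median 2.21), with a log2 fold change of 3.02 ± 0.59 (adjusted p = 0.000631). Rdh10, which makes retinal from retinol, had 15.8 to 33.9 CPM in the DA (median 26.1) and 9.60 to 14.7 CPM in the aorta (median 12.9), with a log2 fold change of 1.01 (adjusted p = 0.000111). Dhrs3, which reverses that step, had 63.3 to 87.4 CPM in the DA (median 74.2) and 36.7 to 47.7 CPM in the aorta (median 42.0), with a log2 fold change of 0.83 (adjusted p = 1.54e-06).

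Growth factors and their receptors had 8 of 48 members called higher and 6 lower, or 3 lower without control aorta replicate 1, with a median of 0.03. The chemokines went opposite ways. Cxcl14 had 5.62 to 16.8 CPM in the DA (median 14.7) and 0.156 to 1.25 CPM in the aorta (median 0.458), with a log2 fold change of 4.46 ± 0.67 (adjusted p = 2.48e-05). While Cxcl12 had 452 to 592 CPM in the DA (median 505) and 827 to 1218 CPM in the aorta (median 1043), with a log2 fold change of -1.01 ± 0.08 (adjusted p = 1.47e-09). So did the IGF-binding proteins, with Igfbp2 at 376 to 942 CPM in the DA (median 667) and 111 to 193 CPM in the aorta (median 138), with a log2 fold change of 2.14 (adjusted p = 1.7e-06). Igfbp4 had 273 to 600.0 CPM in the DA (median 369) and 761 to 1070 CPM in the aorta (median 831), with a log2 fold change of -0.995 (adjusted p = 2.31e-05). Vegfd, a ligand of lymphatic and vascular endothelium, had 29.2 to 45.1 CPM in the DA (median 34.8) and 4.75 to 13.5 CPM in the aorta (median 9.24), with a log2 fold change of 1.98 (adjusted p = 5.27e-09). The EGF family ligand Ereg had 3.68 to 10.4 CPM in the DA (median 9.10) and 1.03 to 3.28 CPM in the aorta (median 1.84), with a log2 fold change of 2.06 (adjusted p = 0.000185). Fgf2 was lower (27.2 to 49.4 CPM in the DA with a median of 35.97, 62.8 to 82.3 CPM in the aorta with a median of 79.8, log2 fold change -0.97, adjusted p = 6.24e-06). Axon guidance genes, many of which also act on vessels, had 8 of 50 called higher and 6 lower, with a median of 0.07. The repellent Slit2 had 42.2 to 76.6 CPM in the DA (median 57.5) and 16.6 to 26.6 CPM in the aorta (median 22.7), with a log2 fold change of 1.41 (adjusted p = 2.39e-06). The netrin Ntn4 had 18.2 to 47.8 CPM in the DA (median 35.2) and 8.38 to 17.9 CPM in the aorta (median 12.6), with a log2 fold change of 1.38 (adjusted p = 2.09e-05). Of the Eph receptors, Epha4 was higher (23.6 against 10.8 CPM in medians, 1.10), and Epha3 had 19.8 to 73.8 CPM in the DA (median 57.5) and 118 to 197 CPM in the aorta (median 183), with a log2 fold change of -1.72 ± 0.19 (adjusted p = 3.35e-07). The ephrin Efna5 (-0.69) and the semaphorin Sema5a (-0.82) were lower, and the netrin Ntn3 was higher (1.37).

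Matrix genes differed in kind rather than in 1 direction. Of 42 tested collagens 5 were called higher and 5 lower, with a median of -0.18. Both chains of type VIII collagen, a short-chain collagen of vessels, were called higher. Col8a2 had 51.0 to 106 CPM in the DA (median 76.5) and 8.38 to 24.4 CPM in the aorta (median 13.6), with a log2 fold change of 2.44 ± 0.22 (adjusted p = 8.61e-09). Col8a1 had 5.15 to 28.6 CPM in the DA (median 17.2) and 2.72 to 4.55 CPM in the aorta (median 3.70), with a log2 fold change of 2.14 ± 0.37 (adjusted p = 0.000155), but its adjusted p was 0.115 in limma-voom. Col12a1 was higher as well (162 against 106 CPM in medians, 0.62). The type VI chains split. Col6a2 was higher at a log2 fold change of 0.53, which fell short of the fold limit without control DA replicate 3, at 0.44, and with the embryo as a block. Col6a3 had 133 to 389 CPM in the DA (median 208) and 442 to 633 CPM in the aorta (median 589), with a log2 fold change of -1.27 (adjusted p = 6.83e-06). Col6a6 had 14.3 to 87.2 CPM in the DA (median 42.7) and 97.6 to 161 CPM in the aorta (median 120.2), with a log2 fold change of -1.497 (adjusted p = 0.00042), and Col24a1 was lower at -0.82. Col9a3, of a cartilage collagen, was called higher with overlap (log2 fold change 2.54, adjusted p = 0.00139) but not in limma-voom (adjusted p = 0.0192). In the elastic fibre list 5 of 23 were called higher and 2 lower, with a median of 0.06. The crosslinking enzyme Loxl4 had 30.8 to 60.3 CPM in the DA (median 37.8) and 3.33 to 11.04 CPM in the aorta (median 5.91), with a log2 fold change of 2.78 ± 0.26 (adjusted p = 1.49e-08). The microfibril protein Fbn2 had 199 to 338 CPM in the DA (median 314) and 99.2 to 150.1 CPM in the aorta (median 115), with a log2 fold change of 1.28 ± 0.12 (adjusted p = 1.06e-08). Mfap5, also of microfibrils, had 383 to 719 CPM in the DA (median 602) and 226 to 345 CPM in the aorta (median 291), with a log2 fold change of 0.95 ± 0.13 (adjusted p = 4.01e-06). Loxl1, which crosslinks elastin, was lower at a log2 fold change of -0.51, and at -0.45 without control aorta replicate 1, short of the fold limit. Elastin (Eln) was below the aorta range in each DA library (58750 against 77220 CPM in medians) with a log2 fold change of -0.41 ± 0.09 (adjusted p = 0.00177), short of the fold limit.

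Of 56 genes for hyaluronan, proteoglycans and glycoproteins, the matrix in which intimal cushions form, 13 were called higher and 5 lower, with a median of 0.10, and 8 and 3 with the embryo as a block. Tenascin N (Tnn) had 21.7 to 60.9 CPM in the DA (median 35.0) and 2.35 to 11.6 CPM in the aorta (median 2.84), with a log2 fold change of 2.87 ± 0.36 (adjusted p = 1.76e-06). Thrombospondin 1 (Thbs1), which binds cells and activates TGF-β, had 380.2 to 791 CPM in the DA (median 549) and 65.8 to 147 CPM in the aorta (median 92.8), with a log2 fold change of 2.50 ± 0.20 (adjusted p = 1.47e-09). Its relative Thbs4 was called higher with overlap (log2 fold change 1.77, adjusted p = 0.00237), with an adjusted p of 0.0366 with the embryo as a block and 0.141 in limma-voom. Fibronectin (Fn1), on which cushion cells migrate, had 2528 to 4146 CPM in the DA (median 2888) and 1279 to 1832 CPM in the aorta (median 1501), with a log2 fold change of 1.04 ± 0.14 (adjusted p = 3.39e-06). Aggrecan (Acan, chromosome 7, 79053483 to 79115099, plus strand), a large proteoglycan, was lower, with 33.9 to 166 CPM (median 64.1) in the DA and 239 to 354 CPM (median 306) in the aorta, a log2 fold change of -1.801 ± 0.25 (adjusted p = 9.09e-06). Hapln1, which links aggrecan to hyaluronan, was lower with overlap (4.74 to 12.4 CPM in the DA with a median of 7.40, 9.34 to 28.3 CPM in the aorta with a median of 19.1, log2 fold change -1.25, adjusted p = 0.000352). The basement membrane protein Nid2 was lower (59.4 against 109 CPM in medians, log2 fold change -0.92, adjusted p = 0.000225), as was periostin (Postn, 1164 against 2188 CPM, log2 fold change -0.81, adjusted p = 0.000706), which had an adjusted p of 0.0121 with the embryo as a block. Among 43 matrix proteases and their inhibitors 9 were called higher and 3 lower, with a median of 0.11. Adamtsl2, a microfibril-bound relative of the ADAMTS proteases, had 40.3 to 66.3 CPM in the DA (median 61.8) and 2.63 to 12.5 CPM in the aorta (median 5.17), with a log2 fold change of 3.18 ± 0.27 (adjusted p = 3.62e-09). Its relative Adamtsl3 (1.82), Mmp17 (1.67) and Adamts9 (1.42) were higher, and the inhibitor Timp4 was lower, with 6.56 to 71.3 CPM in the DA (median 28.1) and 109.5 to 149.9 CPM in the aorta (median 122), at a log2 fold change of -1.95 ± 0.34 (adjusted p = 0.00018). Mmp16 was lower with overlap (log2 fold change -0.62, adjusted p = 0.00102). Of 42 integrin and adhesion genes 6 were called higher and 6 lower, with a median of 0.18. Mcam, an adhesion molecule of SMC and endothelium, had 492 to 803 CPM in the DA (median 648) and 229.9 to 341 CPM in the aorta (median 281), with a log2 fold change of 1.19 (adjusted p = 4.99e-09), and Lims2 (0.97) and the collagen receptor Itga1 (0.85) were higher. The cadherins Cdh6 (8.29 to 25.0 CPM in the DA with a median of 11.7, 41.8 to 60.0 CPM in the aorta with a median of 46.3, log2 fold change -1.61, adjusted p = 2.12e-05) and Cdh13 (-1.18) were lower, as were the laminin receptor Itga7 (-1.37) and the collagen receptor Itga10 (-1.18), whose adjusted p was 0.0233 with the embryo as a block.

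**Figure D4:**
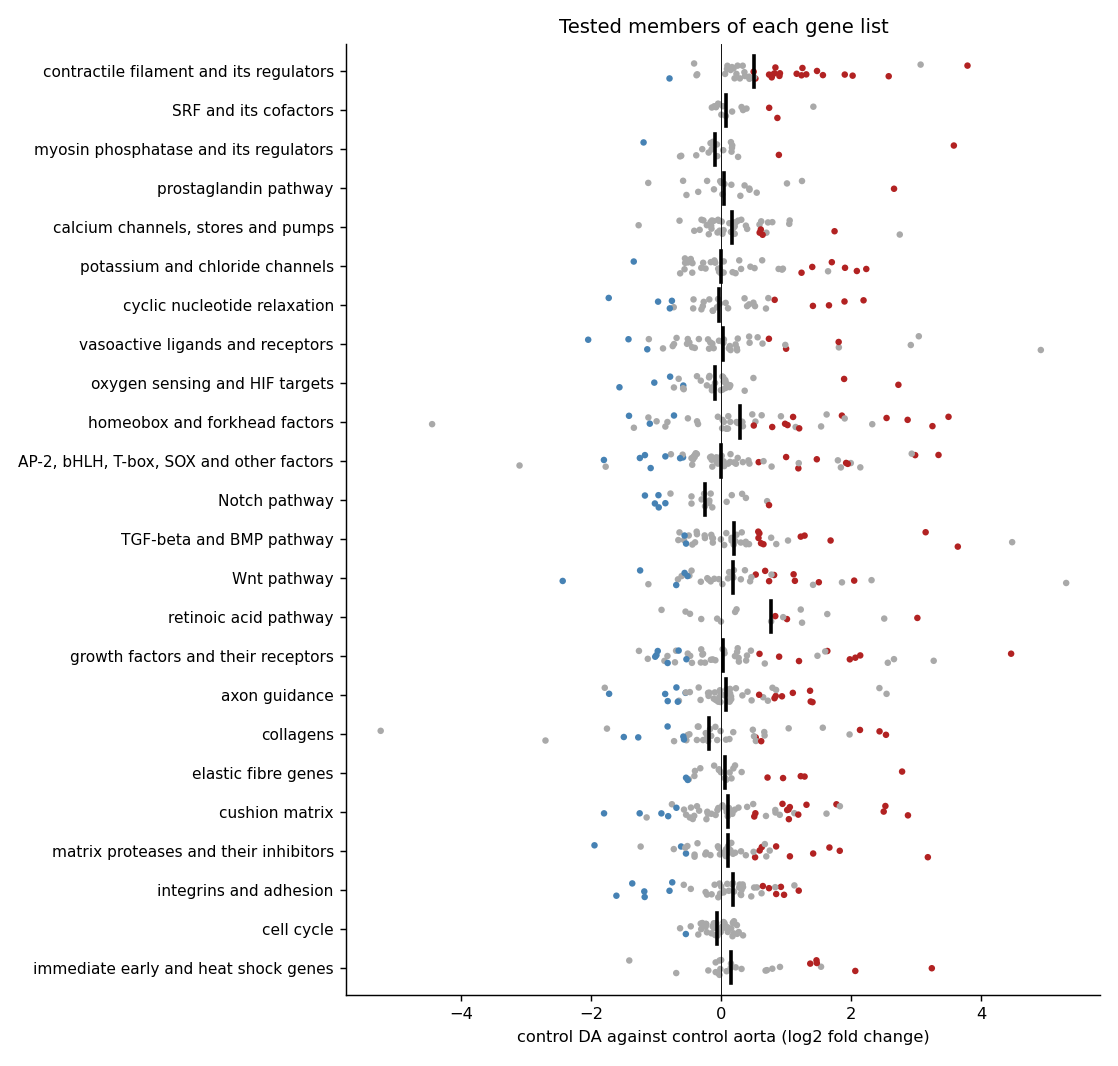
Log2 fold change of control DA over control aorta for the tested members of 24 gene lists, 1 point for each gene, red where called higher, blue where called lower and grey where not called. Black bars are list medians, which run from -0.25 for the Notch pathway to 0.77 for the retinoic acid pathway, with the contractile list at 0.50.

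Cell cycle genes showed little difference, with 0 of 41 called higher, 1 lower and a median of -0.06. The gene called was Mcm3, of the replication helicase, with 50.2 to 67.9 CPM in the DA (median 62.0) and 75.8 to 105 CPM in the aorta (median 84.6), at a log2 fold change of -0.54 ± 0.09 (adjusted p = 9.28e-05), which was -0.48 and outside the fold limit without control aorta replicate 4. Of 25 immediate early and heat shock genes, which can respond to handling of tissue, 5 were called higher and 0 lower, with a median of 0.15. The orphan nuclear receptor Nr4a3 had 6.22 to 18.5 CPM in the DA (median 9.15) and 0.431 to 2.36 CPM in the aorta (median 0.736), with a log2 fold change of 3.24 (adjusted p = 0.000224), and its relative Nr4a1 a log2 fold change of 1.47. The small heat shock protein Hspb1 had 173 to 311 CPM in the DA (median 238) and 67.0 to 99.5 CPM in the aorta (median 84.1), with a log2 fold change of 1.47 (adjusted p = 2.67e-09). The remaining members, Hspa1b (log2 fold change 2.06) and Hspa1a (1.37), are nearly identical, so that reads may be split between them. The part of dissection in these values was not tested.

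Markers of other cell types were read for each library. The SMC list had 5 of 7 called higher and 0 lower, with a median of 0.74. Of 12 endothelial markers 1 was called, the factor Erg (51.5 to 117 CPM in the DA with a median of 65.7, 27.8 to 49.0 CPM in the aorta with a median of 42.5, log2 fold change 0.83, adjusted p = 0.00264), which missed the limit without control aorta replicate 3 (adjusted p = 0.0106). The endothelial genes Cdh5, Pecam1 and Kdr had log2 fold changes of 0.12, 0.27 and 0.05 and were not called. Melanocyte markers had 4 of 8 tested genes called higher and 0 lower, with a median of 4.35. This list was written in earlier work on these data after Dct and Tyrp1 had been seen. Dct (chromosome 14, 118012790 to 118052244, minus strand), an enzyme of melanin synthesis, had 17.6 to 129 CPM (median 51.4) in the DA, and in the aorta 7.91 CPM in control aorta replicate 4 and at most 0.288 CPM in the other 5 libraries. Its log2 fold change was 5.28 ± 0.81 (adjusted p = 3.14e-05), and 9.17 without control aorta replicate 4, and its adjusted p was 0.0144 in limma-voom. Tyrp1, of the same pathway, had 3.23 to 32.2 CPM in the DA (median 13.6) and 0 to 2.84 CPM in the aorta (median 0), with a log2 fold change of 4.77 ± 0.91 (adjusted p = 0.000479), or 7.30 without control aorta replicate 4, and its adjusted p was 0.0126 in DESeq2. Pmel, the fibril protein of the pigment granule, had 6.87 to 49.6 CPM in the DA (median 11.8) and 0.303 to 2.65 CPM in the aorta (median 1.55), with a log2 fold change of 3.60 ± 0.71 (adjusted p = 0.000706), and overlaps other genes. Mitf, the master factor of melanocytes, had 4.50 to 12.8 CPM in the DA (median 6.12) and 1.01 to 4.14 CPM in the aorta (median 1.72), with a log2 fold change of 1.85 (adjusted p = 0.0017), with an adjusted p of 0.0184 with the embryo as a block. Tyrosinase (Tyr), the defining enzyme, was at 0 to 3.73 CPM in the DA and 0 to 0.145 CPM in the aorta and was not called (adjusted p = 0.0152), but met the limits without control DA replicate 2 (adjusted p = 0.00743). The summed melanocyte markers were 35.3 to 237 CPM in the DA and 2.17 to 15.9 CPM in the aorta.

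Of 7 skeletal muscle markers 2 were called higher and 0 lower, with a median of 1.53. Ckm, muscle creatine kinase, had 32.9 to 188 CPM in the DA (median 49.5) and 4.36 to 19.7 CPM in the aorta (median 12.2), with a log2 fold change of 2.35 ± 0.41 (adjusted p = 0.000199), with the highest DA value, 188 CPM, in control DA replicate 1 and 32.9 to 56.4 CPM in the other 6. The fast troponin T Tnnt3 had 8.77 to 20.2 CPM in the DA (median 16.4) and 1.35 to 2.96 CPM in the aorta (median 1.82), with a log2 fold change of 3.03 ± 0.34 (adjusted p = 2.89e-07). The summed skeletal markers were 49.4 to 248 CPM in the DA and 8.29 to 29.1 CPM in the aorta, and the defining factors Myod1 and Myog stayed at or below 1.28 CPM in all 13 libraries. Their part in the contractile differences was not tested. Neuron markers had 2 of 12 called lower and 0 higher, with a median of -0.64: Hand2, described above, and Elavl4 (0.404 to 2.89 CPM in the DA with a median of 1.501, 3.01 to 6.41 CPM in the aorta with a median of 4.55, log2 fold change -1.73, adjusted p = 0.00176), whose adjusted p was 0.0348 with the embryo as a block and 0.134 in limma-voom. The neuron marker sums were 22.3 to 62.3 CPM in the DA and 68.6 to 101 CPM in the aorta. Hand2, also a factor of the neural crest and heart, held 5.39 to 23.2 CPM of them in the DA and 24.5 to 54.1 CPM in the aorta. The gap between the vessels in these sums thus rests in large part on Hand2. The chondrocyte list split, with Sox9 higher and Acan lower among 6 tested genes and a median of 0.29. By sign 3 members were higher and 3 lower. Its sums were 94.8 to 192 CPM in the DA and 250.5 to 366 CPM in the aorta. Acan alone held 33.9 to 166 CPM in the DA and 239 to 354 CPM in the aorta. The lower sums in the DA thus rest on Acan and do not describe the other markers. Col2a1, which defines the cell type, was at most 3.85 CPM in all libraries, and Col9a1 was not called (log2 fold change 0.66). Of 10 fibroblast and adventitial markers 1 was called lower, Dpt (136 to 500.3 CPM in the DA with a median of 238, 577 to 717 CPM in the aorta with a median of 608, log2 fold change -1.05, adjusted p = 0.00188), with a median of -0.17, while Pdgfra (-0.51), Dcn (0.21) and Lum (0.10) were not called. In this list 2 members were called lower without control DA replicate 1 and 3 without control DA replicate 2, Pdgfra among the latter (-0.68, adjusted p = 0.00493). The pan-neuronal Tubb3 was not called either (-0.07). The lists for lymphatic endothelium, macrophages and leukocytes, erythroid cells, Schwann cells and glia, cardiomyocytes, adipocytes, epithelium and thymus, and mesothelium had 0 members called by edgeR at an adjusted p of 0.01, with medians of -0.10, -0.59, -0.79, 0.41, 1.53, 0.86, 1.84 and 1.53 in that order. Hba-a1 was called lower with the embryo as a block (adjusted p = 0.00852), and 1 epithelial member was called higher without control DA replicate 7 or control aorta replicate 1. Their sums overlapped between the vessels. Cardiac troponins had log2 fold changes of 0.90 (Tnnt2) and 1.805 (Tnni3), and Tnni1 one of 0.93. The leukocyte genes Ptprc, Cd68 and Csf1r had -0.83, -0.63 and -0.59, the haemoglobin genes Hba-a1, Hba-a2 and Hbb-bs -0.80, -0.74 and -0.79, and the lymphatic genes Prox1, Lyve1 and Flt4 0.21, -0.54 and -0.10. The glial genes Sox10 and S100b had 0.78 and 0.48, the adipocyte genes Adipoq, Pparg and Plin1 2.38, 0.92 and 2.87, the epithelial genes Cdh1 and Krt8 2.91 and 1.30, and the mesothelial genes Upk3b, Msln and Wt1 1.61, 1.57 and 1.76. These members of lists without a call are log2 fold changes of DA over aorta, and the widest of them belonged to genes at low levels.

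**Figure D5:**
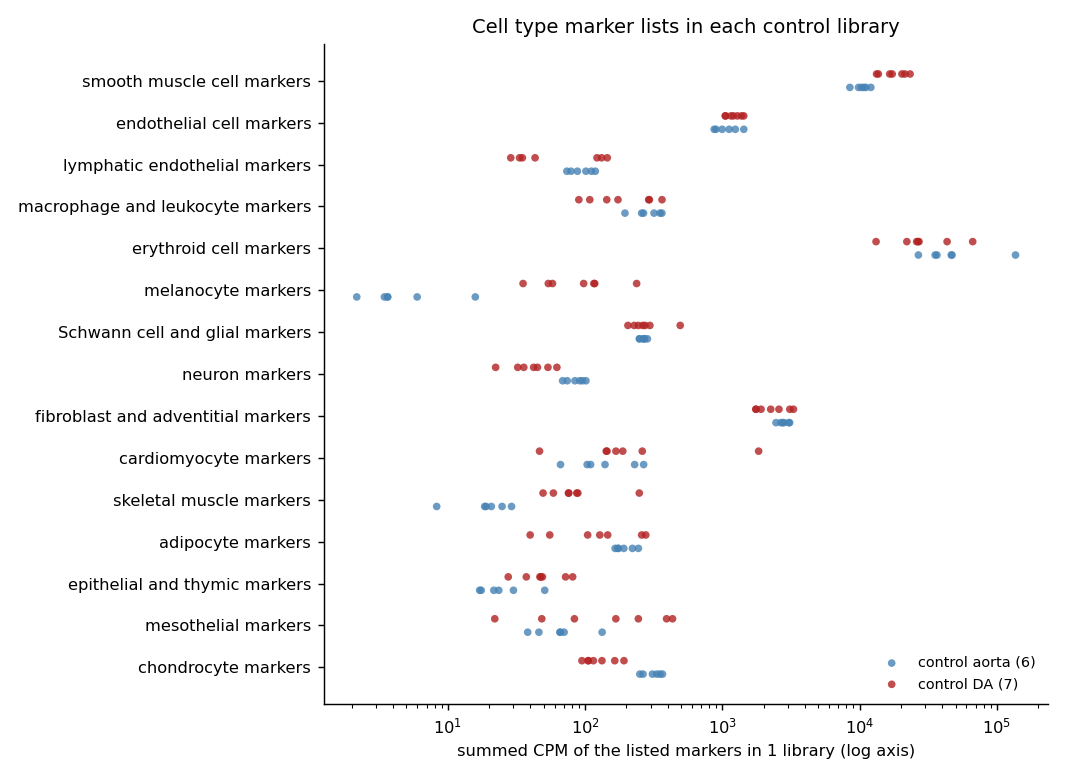
Summed CPM (log axis) of the markers of 15 cell types in each of the 7 control DA libraries (red) and 6 control aorta libraries (blue). The vessels do not overlap for SMC, melanocyte, neuron, skeletal muscle and chondrocyte markers. In the aorta, Acan makes up most of the chondrocyte sums and Hand2 a large part of the neuron sums. Control DA replicate 1 lies apart for cardiomyocyte markers at 1837 CPM, and control aorta replicate 4 for erythroid markers at 136600 CPM.

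Several of the largest differences fell in none of the lists. Among genes higher in the DA, the predicted gene Gm14226 (chromosome 2, 155018266 to 155027104, plus strand) had 57.9 to 111 CPM (median 85.0) in the DA, and in the aorta 12.1 CPM in control aorta replicate 4, 4.67 CPM in replicate 5 and at most 0.728 CPM in the other 4. Its log2 fold change was 4.73 ± 0.69 (adjusted p = 1.54e-05), and 5.97 without control aorta replicate 4. Bdh1, an enzyme of ketone body metabolism, had 25.3 to 63.0 CPM in the DA (median 39.6) and 0 to 4.001 CPM in the aorta (median 1.05), with a log2 fold change of 4.57 ± 0.57 (adjusted p = 1.76e-06). Akap5, which anchors protein kinase A, had 47.6 to 144 CPM in the DA (median 83.6) and 3.03 to 13.4 CPM in the aorta (median 6.59), with a log2 fold change of 3.56 ± 0.33 (adjusted p = 1.85e-08). Adap1, an Arf GTPase-activating protein, had 42.6 to 87.6 CPM in the DA (median 49.1) and 2.52 to 8.72 CPM in the aorta (median 4.196), with a log2 fold change of 3.52 ± 0.24 (adjusted p = 6.88e-10). Carboxypeptidase M (Cpm, log2 fold change 3.79), the otogelin-like gene Otogl (4.25) and the kinase gene Dclk3 (3.95) completed, with Des, Foxf1, Grem1, Cxcl14, Hoxb5os, Dct, Tyrp1 and Pmel, the 15 largest differences among called genes with a mean log2 CPM of 1 or more and no overlap between the vessels.

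Among genes lower in the DA, Ky, which is needed for muscle maintenance, had 0 to 2.09 CPM in the DA (median 0.947) and 9.39 to 29.2 CPM in the aorta (median 13.7), with a log2 fold change of -4.10 ± 0.63 (adjusted p = 3.43e-05). The potassium channel subunit Kcnab1 had 2.56 to 27.1 CPM in the DA (median 7.25) and 51.6 to 72.6 CPM in the aorta (median 62.5), with a log2 fold change of -2.40 ± 0.33 (adjusted p = 6.23e-06). The channel-interacting protein Kcnip4 had 0 to 4.77 CPM in the DA (median 3.17) and 12.5 to 22.7 CPM in the aorta (median 18.5), with a log2 fold change of -2.68 ± 0.40 (adjusted p = 2.31e-05). The ATP receptor P2rx5 had 0.798 to 4.30 CPM in the DA (median 1.89) and 8.39 to 18.3 CPM in the aorta (median 13.98), with a log2 fold change of -2.60 (adjusted p = 9.56e-06). The adenylate cyclase Adcy8 had 0.167 to 8.09 CPM in the DA (median 1.72) and 9.49 to 20.5 CPM in the aorta (median 12.7), with a log2 fold change of -2.33 (adjusted p = 0.000334). The receptor Epha1 had 2.28 to 7.71 CPM in the DA (median 5.57) and 20.4 to 28.9 CPM in the aorta (median 23.9), with a log2 fold change of -2.25 (adjusted p = 4.87e-07). The collectin Colec10 had 6.34 to 18.8 CPM in the DA (median 16.3) and 52.7 to 81.5 CPM in the aorta (median 72.1), with a log2 fold change of -2.25 (adjusted p = 5.27e-09). For these 7 genes every DA library lay below every aorta library. Genes near the floor of detection in the DA gave less certain folds. Mab21l1 had 0 to 0.851 CPM in the DA (median 0.0669) and 1.57 to 6.31 CPM in the aorta (median 4.76), with a log2 fold change of -4.39 that was -5.43 without control DA replicate 5. Ralyl had 0 to 0.354 CPM in the DA (median 0.0557) and 0.723 to 2.76 CPM in the aorta (median 2.33), with a log2 fold change of -4.16, or -4.79 without control DA replicate 2. Ccdc42 had 0 to 2.002 CPM in the DA (median 0) and 5.83 to 8.95 CPM in the aorta (median 6.32), with a log2 fold change of -4.16, or -5.96 without control DA replicate 3. Pcsk2 (0.602 against 3.55 CPM in medians, log2 fold change -2.38, adjusted p = 0.00024) had an adjusted p of 0.0234 with the embryo as a block. Atp10b (1.63 against 7.39 CPM, log2 fold change -2.27, adjusted p = 0.00423) reached an adjusted p of 0.0151 at most without control DA replicate 5, control aorta replicate 1 or control aorta replicate 6. D830030K20Rik (1.20 against 8.01 CPM, log2 fold change -2.41, adjusted p = 0.00263), Wnt16 and Hand2os1 were the remaining genes of the 15 largest decreases within the same limits.

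Some genes that the study names for the DA did not differ beyond the limits. Prdm6 itself had 85.0 to 128 CPM in the DA (median 104) and 95.6 to 136 CPM in the aorta (median 108), with the vessels overlapping, 3 of 6 embryos higher in the DA, and a log2 fold change of -0.07 ± 0.10 (adjusted p = 0.783). Integrin-linked kinase (Ilk) had 441 to 564 CPM in the DA (median 486) and 409 to 462 CPM in the aorta (median 448), with a log2 fold change of 0.17 ± 0.06 (adjusted p = 0.0852). Fibulin-1 (Fbln1), a glycoprotein of the cushion matrix, had 61.8 to 199.7 CPM in the DA (median 92.9) and 130.1 to 220.0 CPM in the aorta (median 159.9), with a log2 fold change of -0.50 ± 0.22 (adjusted p = 0.175), and was lower in the DA in 4 of 6 embryos.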

How the data were processed

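RNA was extracted from microdissected ascending aorta and DA with a micro-scale column kit, and libraries for low-input RNA-Seq were made with NEBNext Ultra II. The authors aligned reads with STAR and quantified genes with RSEM on mm10 (versions are not given in the sources used here), and deposited 1 table of expected counts for 54752 genes in 23 samples. Of its values, 7.71% were not whole, and all were rounded to whole numbers. Samples were grouped by title. The labels list 24 samples, and replicate 4 of the Prdm6-deficient DA is not analysed here. Table columns that match no sample numbered 0. Gene symbols and coordinates come from GENCODE M21 on mm10, in which 53861 IDs matched with their version, 54723 without it and 29 not at all.

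The main test was edgeR's quasi-likelihood test with TMM scaling and edgeR's filter on low counts, over all 4 groups of the study so that they share 1 estimate of the spread, with no batch or animal term. The limits for a call were a Benjamini-Hochberg adjusted p under 0.01 and a log2 fold change past 0.5 either way, sizes that the study used between control and Prdm6-deficient DA and not for DA against aorta. CPM values use TMM-scaled library sizes. R 4.3.3, edgeR 4.0.16, limma 3.58.1, DESeq2 1.42.0, Python 3.11.15, pandas 2.3.3, numpy 2.4.6, scipy 1.17.1 and matplotlib 3.10.9 were used, and the code was tested on simulated data. The alternatives were RLE and upper quartile scaling, DESeq2, limma-voom, glmTreat, no filter, the control libraries alone, blocks by animal and by replicate number, the range of the animal number as a covariate or the embryos of the higher range alone, leaving out the Wnt1Cre embryo, and leaving out each library in turn. A fit of the 6 paired embryos without a block and one without control DA replicate 1 and control aorta replicate 4 were chosen after seeing the data.

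The vessels pair by embryo, from the animal numbers in the labels and not from the replicate numbers. Deviations from the group means correlated at 0.009, 0.04, 0.011, 0.08, -0.022 and 0.05 across genes within the 6 embryos. The animal numbers fall in 2 ranges, the lower holding control DA replicates 2 and 3 and control aorta replicate 3, and the labels do not say what the ranges stand for. The edgeR p-values of the main fit set each difference against a spread pooled over the libraries of all 4 groups, Prdm6-deficient ones included. They carry no term for the embryo and do not allow for the wider spread of the DA libraries.

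The comparison, the gene lists (24 of pathways and 15 of cell types) and the tests were chosen with earlier results of these data known. Genes were named by rule. It took the 15 largest called differences each way among 627 called genes whose mean log2 CPM was 1 or more and whose vessels did not overlap, up to 4 called members each way of each pathway list, 12 genes that the study names, the first 3 and each called member of each cell type list, and list members on which an account turns. Of these, 8 list members whose call was lost in 2 or more of the 13 leave-one-out fits are not described, and 2 markers too low to be tested are not named. A few further genes that the rule took are not reported here. Other genes were chosen after their values were seen. RSEM divides reads between near-identical genes such as Acta2 and Actg2, and a total of 3 counts was taken as the floor of detection. The counting is not stated to use strand, so values of overlapping genes are uncertain.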

Additional observations from a re-analysis of the deposited data

Results flagged for a closer look

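In 522 groups of 6 or 7 libraries that were examined for the named genes, marker sums and library measures, 46 held a library far from the others, by Dixon's test on the gap to the next library at the 95% level. Chance marks about 1 in 20 groups when values are normally distributed and groups are independent. The groups here are mostly raw CPM values, some near 0, and many of them depend on each other. The 46 thus cannot be set against that rate. Control aorta replicate 4 was the library in 15 of the 46, control DA replicate 1 in 6 and each other library in 0 to 5.

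In control aorta replicate 4, haemoglobin genes took 12.4% of counts against 2.74% to 4.65% in the other aorta libraries, and erythroid markers summed to 136600 CPM against 26790 to 47100. Its Hba-a1 (14320 CPM), Hba-a2 (45260 CPM) and Hbb-bs (63830 CPM) stood above the others, which held at most 5098, 15070 and 22970 CPM. The same library held more of genes that were higher in the DA. They were Dct (7.91 CPM, at most 0.288 in the others), Tyrp1 (2.84, at most 0.468), Dclk3 (1.25, at most 0.462), Grem1 (6.84, at most 2.83), Ptger4 (55.9, at most 32.2), Mgll (41.3, at most 30.5) and Col9a3 (6.31, at most 3.01). Its melanocyte markers summed to 15.9 CPM against at most 5.98, with Tyr at 0.145 CPM and 0 in the others, and its Dkk3, a gene lower in the DA, was 625 CPM against at least 712. The cause was not tested, and the report gives the values without this library where a fold moved.

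Control DA replicate 1 had 1837 CPM of cardiomyocyte markers (at most 261 in the other DA libraries), 248 CPM of skeletal muscle markers (at most 88.5), 188 CPM of Ckm (at most 56.4), 69.2 CPM of Tnni3 (at most 18.7) and 52.1 CPM of Tnni1 (at most 5.61). Its Srf was 56.4 CPM, against at least 84.0 in the others. Control DA replicate 3 was high for the melanocyte sum (237 CPM, at most 118 in the others), Nr4a3 (18.5 CPM, at most 9.76), Erg (117 CPM, at most 76.5), Spon2 (156 CPM, at most 109.6) and Ccdc42 (2.002 CPM, at most 0.303). Control DA replicate 7 had 493 CPM of glial markers (at most 296), 3.85 CPM of Col2a1 (at most 1.17) and 0.0963 CPM of Gm3739, which was 0 in the others. Control DA replicate 4 was low for Itpr1 (32.4 CPM, at least 43.8 in the others) and Ereg (3.68 CPM, at least 7.76) and held 0.401 CPM of Gm3164. Control DA replicate 5 held 0.851 CPM of Mab21l1 and 0.585 CPM of Scgb3a2, control DA replicate 6 7.08 CPM of Kcns3 (at most 3.81 in the others) and control DA replicate 2 0.152 CPM of Gm3005.

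Control aorta replicate 1 was high for Jag1 (269 CPM, at most 212 in the other aorta libraries) and for mesothelial markers (133 CPM, at most 70.3), and low for Hif3a (54.2 CPM, at least 71.4), Fgf2 (62.8 CPM, at least 76.5) and Epha3 (118 CPM, at least 174). Control aorta replicate 2 was high for Ccdc42 (8.95 CPM, at most 6.92), Adipoq (8.06 CPM, at most 1.21) and Plin1 (4.06 CPM, at most 0.2697). Control aorta replicate 5 held 1.26 CPM of Trbc1 (at most 0.0959 in the others), and control aorta replicate 6 was low for Ilk (409 CPM, at least 445).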

How the results depend on the processing

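The number of called genes, 882 as reported, was 872 to 944 under RLE scaling, upper quartile scaling, limma-voom and no filter on low counts, 1055 in DESeq2, and 775 to 963 when 1 library was left out. Leaving out 1 library gave 466 to 547 genes higher and 307 to 416 lower, the lowest total without control aorta replicate 3 and the highest without control DA replicate 6. Testing against a log2 fold change of 0.5 with glmTreat, a stricter test by construction, left 334 genes, 231 higher and 103 lower. The control libraries alone, with no Prdm6-deficient library in the fit, gave 789 genes of 14987 tested, 504 higher and 285 lower. With them alone 11 named genes lost their call and 2 gained one. Those that lost it included Acta2, Fhl2, Adora2a, Car9, Ndufa4l2, Foxl1, Foxs1, Thbs4, Itga10 and Atp10b. A replicate block by replicate number, which does not pair the embryos, gave 545 genes, 175 of them lower, and the embryos of the higher range of animal numbers alone gave 550, 183 of them lower. Both use fewer libraries. Leaving out the Wnt1Cre embryo gave 794 genes, 482 higher and 312 lower. In that edgeR fit 3 named genes lost their call, Hoxb5 (adjusted p = 0.0152), Foxs1 (0.0188) and Adora2a (0.0124). The replicate block by animal gave 674 genes, 641 of them among the 882, and the same 6 embryos without the block 688. Among 242 named genes, no direction reversed for a gene that was called in the main fit or in the alternative. Over all 882 called genes, 675 were called in each fit that left out 1 library. Of the 188 named genes that were called, 11 were lost in at least 1 such fit and 17 with the block by animal, and the report gives these. List members lost in 2 or more such fits had in part been left out of the text, so the 11 do not measure stability. The cause was not tested. In limma-voom 10 named genes missed the limit, with adjusted p-values of 0.0112 (Myo18b) to 0.195 (Scgb3a2), and the others were Dct, Hoxb5, Rspo3, Col8a1, Elavl4, Gm3005, Col9a3 and Thbs4. In DESeq2 Tyrp1 missed it (0.0126). Genes that met it only elsewhere were Kcnma1 (0.00132 in DESeq2 and 0.00284 in limma-voom), Hoxb6 in limma-voom (0.00859) and Wt1 and Tyr in DESeq2 (0.0061 and 0.00348). Gm3005 missed it with the animal number range as a covariate (0.0116). The fold changes of 16 called named genes moved by over 1.5 times when 1 library was left out, 6 of them without control aorta replicate 4. At this depth the folds of genes with almost no counts in 1 vessel are not bounded. Those printed for Tyrp1, Ralyl and Ccdc42 are thus rough, and none is given for the predicted genes nearly absent from the DA.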

Other observations

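The following genes, in none of the lists, were picked once their values were known. Rgs5, which shortens G-protein signals in SMC and pericytes, had 5392 to 10610 CPM in the DA (median 7330) and 1239 to 2616 CPM in the aorta (median 1395), with a log2 fold change of 2.27 ± 0.19 (adjusted p = 4.61e-09). Brain-type creatine kinase (Ckb) had 273 to 519 CPM in the DA (median 382) and 44.6 to 113 CPM in the aorta (median 66.1), with a log2 fold change of 2.44 ± 0.19 (adjusted p = 1.33e-09). The lipase Mgll had 85.4 to 176 CPM in the DA (median 105) and 27.5 to 41.3 CPM in the aorta (median 29.9), with a log2 fold change of 1.95 ± 0.15 (adjusted p = 7.46e-10). The matrix protein Spon2 had 79.7 to 156 CPM in the DA (median 101) and 11.2 to 22.2 CPM in the aorta (median 18.3), with a log2 fold change of 2.54 ± 0.19 (adjusted p = 7.23e-10). Fendrr, the non-coding RNA that starts next to Foxf1, had 2.38 to 9.79 CPM in the DA (median 4.58) and 0.0513 to 0.819 CPM in the aorta (median 0.205), with a log2 fold change of 3.98 ± 0.65 (adjusted p = 0.000142). Sclerostin (Sost), a secreted Wnt inhibitor known from bone, was lower, with 64.1 to 564 CPM in the DA (median 224) and 868 to 1322 CPM in the aorta (median 1082), with a log2 fold change of -1.94 ± 0.31 (adjusted p = 6.23e-05). So was the secreted protein Pi15, which had 70.1 to 165 CPM in the DA (median 120.1) and 362 to 430.0 CPM in the aorta (median 373), with a log2 fold change of -1.73 ± 0.15 (adjusted p = 4.8e-09). For each of these 7 genes the vessels did not overlap.

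Trac, the constant region of the T cell receptor α chain, had 43.5 to 92.4 CPM in the DA (median 54.5) and 8.13 to 17.4 CPM in the aorta (median 10.4), with a log2 fold change of 2.45 ± 0.20 (adjusted p = 2.53e-09), and was higher in the DA in 6 of 6 embryos. Other T cell genes were near 0 in both vessels and not called, with at most 0.455 and 1.26 CPM for Trbc1, 0.723 and 1.51 CPM for Trbc2, 0.278 and 0.411 CPM for Cd3g, and 3.08 and 2.47 CPM for Cd247 in the DA and the aorta. What gives the Trac reads was not tested.

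A group of predicted genes at the start of chromosome 14, between 3412614 and 7315049, was nearly absent from the DA. Gm3020 and Gm10409 had the same values, 0 to 0.201 CPM in the DA and 1.35 to 3.64 CPM in the aorta, so their reads may come from either copy. Gm3164 had 0 to 0.401 CPM in the DA and 0.757 to 4.70 CPM in the aorta, Gm3005 0 to 0.152 and 0 to 3.02 CPM, and Gm3739 0 to 0.0963 and 0.578 to 1.77 CPM. Gm3411 was at 0 in all 7 DA libraries, with 0.192 to 1.35 CPM in the aorta. All 6 genes were called lower, but Gm3005 had an adjusted p of 0.138 in limma-voom. No fold is given because most DA libraries held no count of them.

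Scgb3a2, a secreted protein of the airway, was called lower in the DA by edgeR but not by limma-voom (adjusted p = 0.195), through a pair of aorta libraries, with 45.0 CPM in control aorta replicate 1 and 68.1 CPM in replicate 5. The other 4 aorta libraries held 0 to 4.67 CPM and the DA libraries at most 0.585 CPM.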
